A study of Mus musculus with 4 samples.

Results

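Chemokine ligands and their receptors were followed in peritoneal macrophages, as all 41 such genes found by symbol among the 15298 genes of the expression table. The symbols taken were those of the CC, CXC, CX3C and XC ligand and receptor families and of the atypical receptors, together with *Pf4*, and no expression limit was set. *Cxcl13* and *Cxcr5* fit the naming pattern and were left out, which took the number from 43 to 41. The set holds 22 ligands and 19 receptors.

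The cells came from female BALB/c mice 6 weeks of age and were sorted as CD11b+, F4/80+ and Ly6G- cells. Microcurrent stimulation (MCS) was a bidirectional pulsed current of 300 µA and 400 Hz, given for 15 min through pads on the abdomen and the back at Zeitgeber time (ZT) 2, that is, in the early light phase. Both groups were under isoflurane, and the control group underwent the same procedure without current. Cells were taken right after the procedure (ZT2) or 12 h later (ZT14, in the dark phase), which gave 4 libraries, 1 per condition. How many mice were behind each library is not stated in these sources. ZT2 and ZT14 also differ in the time since the procedure, and the hour of the day and the time since anesthesia cannot be told apart.

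Chemokines are small secreted proteins that guide leukocytes along gradients, and their receptors are G protein-coupled receptors that act mainly through inhibitory G proteins. Ligands such as *Cxcl1* and *Cxcl2* are induced quickly during inflammation and call neutrophils, whereas ligands such as *Cxcl12* are made at rest and place cells within tissues. Atypical receptors bind chemokines without G protein signaling and remove them. Resident macrophages of the peritoneum are known both as a source of neutrophil-attracting chemokines and as carriers of receptors for inflammatory CC chemokines.

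Values are CPM, read counts that the authors scaled to library size with edgeR, and scaling the reads by TMM factors gave the same values. The libraries held 8658191, 9217493, 8365590 and 9953243 reads for control ZT2, control ZT14, MCS ZT2 and MCS ZT14, so that 1 read stood for 0.102 to 0.116 CPM. A count of 0 allows up to 3 reads by a one-sided limit, or 0.307 to 0.348 CPM. Intervals are exact 95% intervals on the reads. For a difference between ratios, a fraction of a read was added to each count in place of the 0.1 CPM, and the interval is an approximate normal one. Such a difference can depart slightly from that of the printed ratios. All intervals cover counting error only, and with 1 library per condition the spread between animals is not known. A difference was called past the fold when the log2 ratio of CPM + 0.1 exceeded 1 in either direction and the log2 of the mean CPM of both libraries was above 0. The 8 listed genes of large peritoneal macrophages, the main resident population, summed to 10435 to 11658 CPM, and *Itgam*, which encodes CD11b, was the most abundant of them at 4214 to 5162 CPM. Genes of other cells were present in every library. The listed mast cell genes summed to 983 to 2304 CPM, and *Cma1*, a mast cell protease, stood at 304 to 610 CPM. The B cell genes summed to 927 to 1322 CPM. In such bulk samples, fewer cells of a type and less RNA per cell cannot be told apart.

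Chemokine mRNA was dominated by a few ligands of the CC family. The 41 genes summed to 2919, 2413, 3004 and 2673 CPM in control ZT2, control ZT14, MCS ZT2 and MCS ZT14. *Ccl6* and *Ccl9*, rodent ligands of CCR1, made up 53.8% to 60.3% of that sum. Of the 41 genes, 27 averaged 1 CPM or more in these libraries (12 ligands and 15 receptors), and 7 of those reached 100 CPM, among them *Ccl6*, *Ccl9*, *Ccl24*, *Pf4*, *Ccr1* and *Ccr2*.

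Per kilobase of exon, a scale on which genes can be compared, *Ccl6* led with a mean of 565 CPM per kb (457 to 667 over the libraries). *Pf4*, a ligand best known from platelets, followed at 273 CPM per kb (247 to 315), and *Ccl9* came next at 186 CPM per kb (157 to 202). The ranges of these ligands did not overlap. *Ccl24* held 145 CPM per kb (135 to 155), below the range of *Ccl9*. *Ccr1*, the receptor of *Ccl6* and *Ccl9*, was the most abundant receptor on this scale at 72.5 CPM per kb (66.7 to 75.5). Below it, *Ccr2* at 27.3 (23.2 to 34.7) and *Cxcr4* at 26.9 (17.6 to 37.9) CPM per kb overlapped and were not separated. *Ccl5*, *Ackr3* and *Cxcl14* also overlapped, with means of 12.7 to 15.4 CPM per kb. Next came *Ccr7* at 9.30 CPM per kb.

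**Figure D1:**
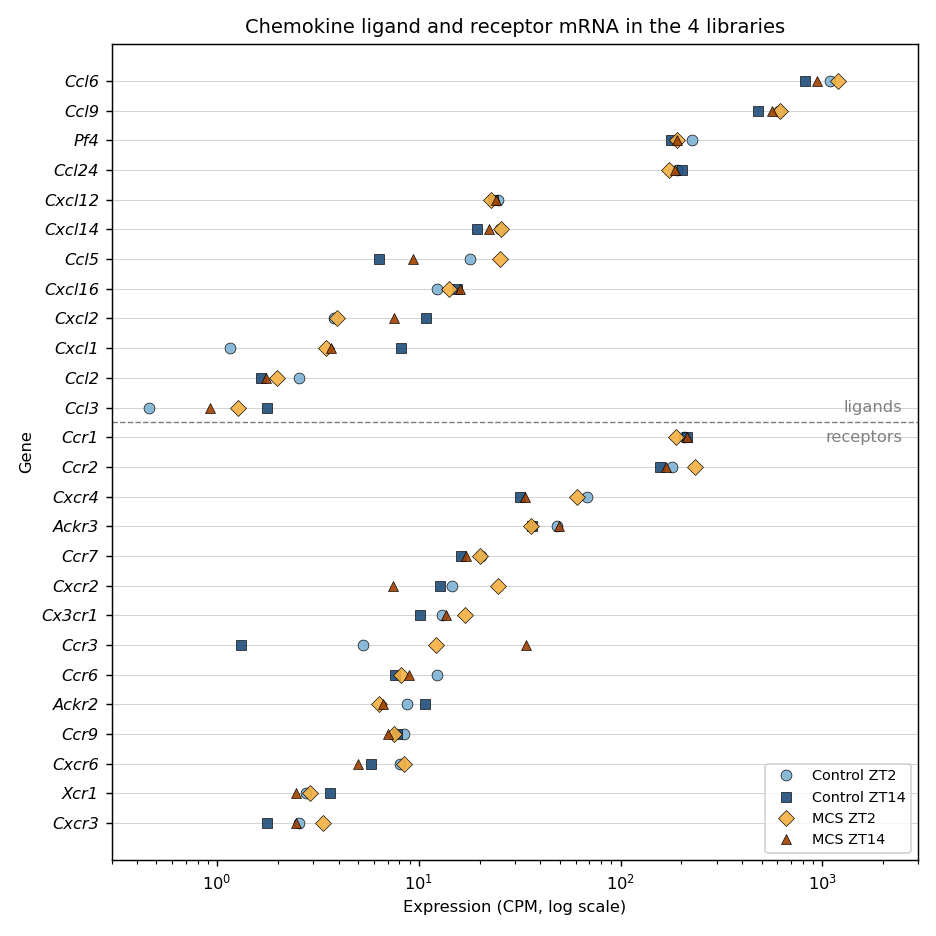
CPM on a log scale (x axis) of chemokine genes with a mean of at least 1 CPM (y axis, ligands above the dashed line and receptors below it, each ordered by mean). Each symbol is 1 library. *Ccl6* and *Ccl9* lie farthest to the right, most genes keep their 4 symbols close together, and *Ccr3*, *Cxcl1* and *Ccl5* are spread widely.

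Many of these genes sit in clusters. On GRCm38.p6, *Ccl5*, *Ccl9*, *Ccl6*, *Ccl3* and *Ccl4* lie on chromosome 11 (83525778 to 83664683), and *Pf4*, *Cxcl3*, *Cxcl1* and *Cxcl2* lie on chromosome 5 (90772435 to 90905938). A receptor cluster on chromosome 9 holds *Ccr9*, *Cxcr6*, *Xcr1*, *Ccr1*, *Ccr1l1*, *Ccr3* and *Ccr2* among others.

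The neutrophil-attracting ligands *Cxcl1*, *Cxcl2* and *Cxcl3*, which act through CXCR2, were all highest in the control library at ZT14. *Cxcl1* measured 1.15, 8.13, 3.48 and 3.68 CPM in control ZT2, control ZT14, MCS ZT2 and MCS ZT14. *Cxcl2* measured 3.81, 10.9, 3.94 and 7.57 CPM in the same order. Control ZT14 stood above every other library for both genes, and for *Cxcl1* it exceeded the next library by more than 2 times. Of all genes with a mean of at least 1 CPM, 0.871% had 1 library so far above the next. *Cxcl3* was near the limit of detection with 2, 19, 6 and 3 reads (0.231, 2.09, 0.696 and 0.307 CPM).

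The promoters of these ligands are shown because the genes share a pattern across the libraries and hold the same motif. Capitals mark matches to GGGNNTTTCC (N is any base), a simplified pattern of NF-kB binding sites chosen here. It was searched on both strands of 250 bases before to 50 after each start in RefSeq (GRCm38.p6). The lines give the 100 bases before the start of each gene, which all lie on the + strand: *Cxcl1* at chr5:90891145-90891244, *Cxcl2* at chr5:90903799-90903898 and *Cxcl3* at chr5:90786001-90786100.
Cxcl1: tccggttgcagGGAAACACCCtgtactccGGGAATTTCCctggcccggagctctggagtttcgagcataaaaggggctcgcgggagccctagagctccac
Cxcl2: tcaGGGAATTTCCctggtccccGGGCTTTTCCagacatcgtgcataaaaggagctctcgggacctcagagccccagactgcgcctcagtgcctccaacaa
Cxcl3: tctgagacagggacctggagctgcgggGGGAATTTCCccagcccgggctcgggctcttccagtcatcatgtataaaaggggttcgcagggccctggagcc
In *Cxcl1* the matches began 89 bases (on the opposite strand) and 71 bases before the start, in *Cxcl2* 97 and 78 bases before it, and in *Cxcl3* 73 bases before it. The run GGGAATTTCC occurred in all 3 promoters. Aligned by their starts without gaps, *Cxcl1* and *Cxcl2* had 26 of 100 bases in common, *Cxcl2* and *Cxcl3* had 32, and *Cxcl1* and *Cxcl3* had 17. Of the 33 chemokine genes with a promoter in the table, 5 (15.2%) held a match, *Ccl9* and *Ccr3* being the others, against 1.63% of all 32851 promoters. The motif was chosen after the values of *Cxcl1*, *Cxcl2* and *Cxcl3* were seen, and these ligands are among the 5. Setting the shares side by side is therefore not a test. *Ccl9* and *Ccr3* were not highest in control ZT14. A match is a description of the letters and not evidence of binding. The E-box CACGTG, which clock transcription factors bind, was found in 2 of the 33 (6.06%, *Cxcl3* and *Xcr1*), against 7.15% of all promoters, and it is absent from the bases printed.

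In control, ZT2 was below ZT14 for these ligands, by a log2 ratio of -2.71 for *Cxcl1* (95% interval -3.93 to -1.86) and -1.49 for *Cxcl2* (-2.13 to -0.93). With MCS the log2 ratio of ZT2 to ZT14 was -0.08 for *Cxcl1* (-0.83 to 0.66) and -0.92 for *Cxcl2* (-1.57 to -0.34). The MCS library thus had nearly equal *Cxcl1* at both times, whereas *Cxcl2* was lower at ZT2 in both groups. At ZT14, MCS was below control by -1.12 for *Cxcl1* (-1.76 to -0.55) and -0.52 for *Cxcl2* (-0.98 to -0.07). At ZT2 the log2 ratio of MCS to control was 1.51 for *Cxcl1* (0.52 to 2.79), on 30 against 10 reads, and 0.05 for *Cxcl2* (-0.69 to 0.79). The log2 ratio for *Cxcl1* therefore had opposite signs at the different times, and the ZT14 ratio minus the ZT2 ratio was -2.68 (-3.84 to -1.52). Summed, *Cxcl1*, *Cxcl2* and *Cxcl3* measured 5.20, 21.1, 8.12 and 11.6 CPM in control ZT2, control ZT14, MCS ZT2 and MCS ZT14. Their chromosome 5 neighbor *Pf4* did not share the pattern, at 227, 178, 191 and 191 CPM in the same order. Its log2 ratio of ZT2 to ZT14 was 0.35 in control (0.25 to 0.44). The 4 listed platelet genes summed to 8.89, 5.38, 8.47 and 5.83 CPM, and *Itga2b* (4.83 to 8.0 CPM) led them.

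*Cxcr2*, the receptor of these ligands and a defining receptor of neutrophils, was highest in MCS ZT2 and lowest in MCS ZT14. It measured 14.6, 12.7, 24.7 and 7.46 CPM in control ZT2, control ZT14, MCS ZT2 and MCS ZT14. The log2 ratio of MCS to control was 0.76 at ZT2 (0.44 to 1.09) and -0.76 at ZT14 (-1.21 to -0.34), and the difference between them was -1.53 (-2.06 to -1.002). With MCS, ZT2 was above ZT14 by 1.71 (1.34 to 2.13), and in control by 0.19 (-0.18 to 0.57). Neutrophil genes were highest in the same library. The 10 of 11 listed neutrophil genes in the table summed to 163, 214, 307 and 175 CPM, mostly from *Csf3r* (143 to 205 CPM), the receptor of granulocyte colony-stimulating factor. The other 9 summed to 19.7, 21.2, 102 and 11.96 CPM, and *S100a9* led them at 33.5 CPM in MCS ZT2. *Retnlg* alone of the 9 was more than 2 times higher in MCS ZT14 (5.93 CPM) than in control ZT14 (2.20 CPM). *Camp*, *Ngp*, *Elane* and *Mpo*, granule proteins of neutrophils and their precursors, were at 0 in MCS ZT14, and *Camp*, *Elane* and *Mpo* had no more than 3 reads in control ZT14. The Ly6G- gate of the sort is meant to remove neutrophils. The part of neutrophil RNA in the *Cxcr2* values was not tested.

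*Ccr3*, the eotaxin receptor known from eosinophils, had the largest difference of the 27 genes between MCS and control at ZT14. It measured 5.31 and 1.32 CPM in control ZT2 and ZT14, and 12.2 and 33.8 CPM in MCS ZT2 and ZT14 (46, 12, 105 and 331 reads). Both MCS libraries lay above both control libraries, and MCS ZT14 exceeded the next library by more than 2 times. At ZT14 the log2 ratio of MCS to control was 4.58 (3.86 to 5.65), and at ZT2 it was 1.18 (0.68 to 1.73). The difference between the times was 3.44 (2.48 to 4.39) on the log2 scale. The order of the times was reversed between the groups, with a log2 ratio of ZT2 to ZT14 of 1.93 in control (1.07 to 3.06) and -1.47 with MCS (-1.81 to -1.15). These values rest partly on the 12 reads of control ZT14.

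*Ccr1* and *Ccr2*, neighbors of *Ccr3* in the receptor cluster, did not share its ratio. At ZT14 the log2 ratio of MCS to control was 0.00 for *Ccr1* (-0.09 to 0.09) and 0.10 for *Ccr2*. *Ccl24*, which encodes the CCR3 ligand eotaxin-2 and is a known product of resident peritoneal macrophages, stood at 191, 201, 175 and 186 CPM in control ZT2, control ZT14, MCS ZT2 and MCS ZT14. Its log2 ratio of MCS to control was -0.11 at ZT14 (-0.21 to -0.02) and -0.13 at ZT2 (-0.23 to -0.03), so MCS was slightly lower at both times. *Siglecf*, a surface lectin of eosinophils, followed the order of *Ccr3* at 1.27, 0.659, 5.80 and 14.1 CPM. *Il5ra*, an interleukin-5 receptor gene listed here for eosinophils, did not, at 51.0, 48.9, 49.1 and 34.0 CPM. Those 2 were the genes of the 8 listed for eosinophils that had a row, and together they summed to 48.1 to 54.9 CPM, mostly from *Il5ra*. Which cells gave the *Il5ra* reads was not tested. The sum of the 5 of 7 listed red blood cell genes with a row was in the same order too, at 3.23, 1.32, 36.4 and 109.8 CPM, and 2.31, 0.439, 34.9 and 108 CPM of that came from the hemoglobin genes. Of these, *Hba-a2* was at 0 outside MCS ZT14, and *Hba-a1* was higher in MCS ZT2 (22.0 CPM) than in MCS ZT14 (19.6 CPM). The part of eosinophils and of blood in the *Ccr3* values was not tested.

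**Figure D2:**
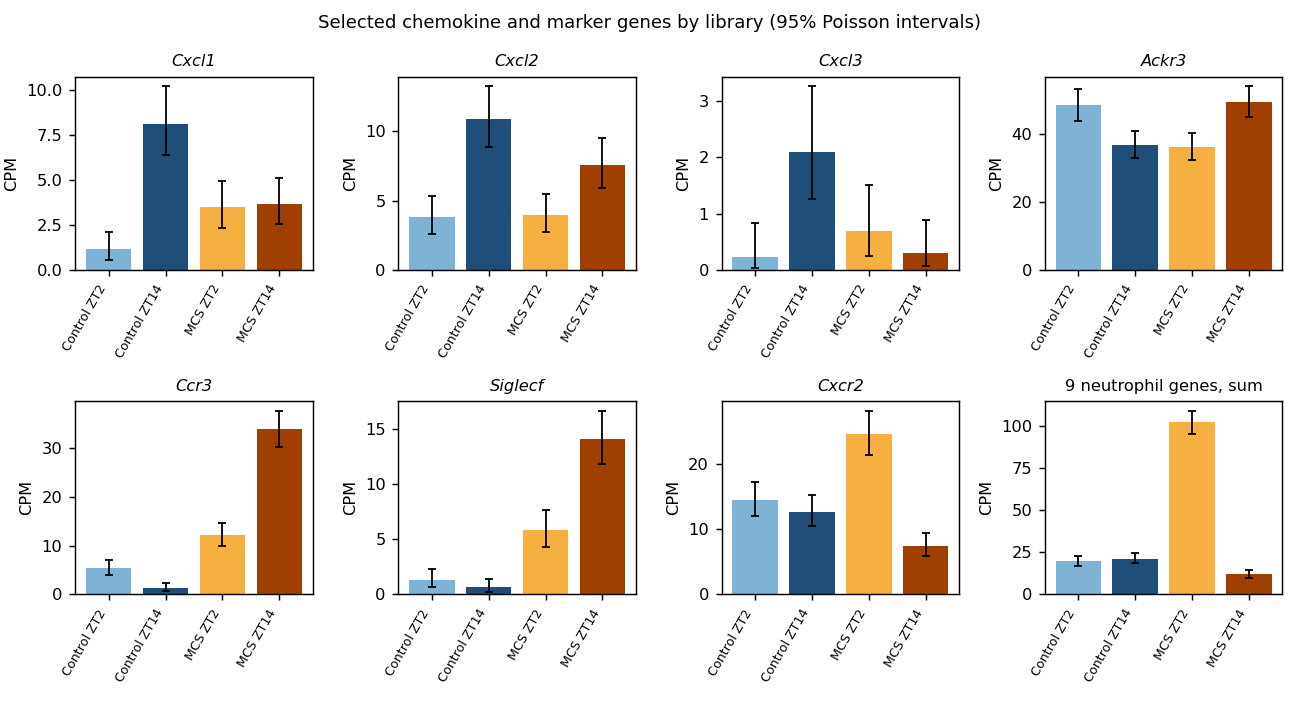
CPM (y axis, from 0) in each of the 4 libraries (x axis) for *Cxcl1*, *Cxcl2*, *Cxcl3* and *Ackr3* in the upper row, and for *Ccr3*, *Siglecf*, *Cxcr2* and the sum of 9 neutrophil genes in the lower row. Bars are the values and error bars exact 95% Poisson intervals on the reads. *Cxcl1* peaks in control ZT14, *Ccr3* and *Siglecf* in MCS ZT14, and *Cxcr2* with the neutrophil genes in MCS ZT2.

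The main ligands of CCR1 were higher at ZT2 than at ZT14 in both groups. *Ccl6* measured 1093, 820, 1197 and 945 CPM in control ZT2, control ZT14, MCS ZT2 and MCS ZT14. *Ccl9* measured 610, 478, 615 and 562 CPM in the same order. For *Ccl6* the log2 ratio of ZT2 to ZT14 was 0.42 in control (0.37 to 0.46) and 0.34 with MCS (0.30 to 0.38), and for *Ccl9* it was 0.35 (0.29 to 0.41) and 0.13 (0.07 to 0.18). *Ccl6* was also above control with MCS at both times, by a log2 ratio of 0.21 at ZT14 (0.16 to 0.25) and 0.13 at ZT2 (0.09 to 0.17). *Ccl9* was above control at ZT14 by 0.23 (0.18 to 0.29), but at ZT2 the log2 ratio was 0.01 (-0.04 to 0.07). These are differences of less than 1.5 times on many reads, and their intervals leave out the spread between animals.

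*Ccl5*, a ligand of CCR1 and CCR3 made by T cells and natural killer cells as well as macrophages, differed between times in both groups. It measured 18.0 CPM in control ZT2 and 25.2 CPM in MCS ZT2, against 6.37 CPM in control ZT14 and 9.41 CPM in MCS ZT14. Both ZT2 libraries lay well above both ZT14 libraries, by a log2 ratio of 1.49 in control (1.06 to 1.96) and 1.41 with MCS (1.06 to 1.79). MCS was above control at each time, by 0.48 at ZT2 (0.18 to 0.79) and 0.55 at ZT14 (0.07 to 1.06). Summed genes of natural killer and T cells were higher at ZT2 too. The B cell sum in control was lower at ZT2 (1082 CPM) than at ZT14 (1322 CPM). With MCS it was higher at ZT2 (1043 CPM) than at ZT14 (927 CPM). The 6 listed natural killer cell genes summed to 35.1 and 47.6 CPM in control and MCS at ZT2 and to 18.9 and 20.3 CPM at ZT14. The 7 listed T cell genes summed to 38.2 and 45.0 CPM at ZT2 and to 23.6 and 31.4 CPM at ZT14. *Gzma*, a granule protease of killer cells (4.61 to 10.9 CPM), and *Cd3e*, a chain of the T cell receptor complex (4.72 to 11.0 CPM), were among the most abundant, and none of the listed T or natural killer cell genes was at 0 in any library. Their part in the *Ccl5* result was not tested.

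*Ccl3* and *Ccl4*, inflammatory CC ligands that overlap in the annotation, were close to the detection limit. *Ccl3* measured 0.462, 1.76, 1.28 and 0.920 CPM in control ZT2, control ZT14, MCS ZT2 and MCS ZT14, and its log2 ratio of ZT2 to ZT14 in control was -1.72 on 4 against 16 reads (-3.97 to -0.30). *Ccl4* was highest in the same library, at 1.10 CPM or 10 reads.

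*Ccr1*, the receptor of *Ccl6* and *Ccl9*, varied little. It measured 206, 214, 189 and 214 CPM in control ZT2, control ZT14, MCS ZT2 and MCS ZT14. Its lowest value was in MCS ZT2, and within each group ZT2 lay under ZT14, opposite to *Ccl6* and *Ccl9*. The log2 ratio of ZT2 to ZT14 was -0.05 in control (-0.15 to 0.04) and -0.18 with MCS (-0.27 to -0.09).

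*Ccr2*, the receptor that brings monocytes out of the marrow, was highest in MCS ZT2. It measured 179, 157, 234 and 168 CPM in control ZT2, control ZT14, MCS ZT2 and MCS ZT14, and the log2 ratio of MCS to control was 0.39 at ZT2 (0.29 to 0.48) and 0.10 at ZT14. The sum of the 7 listed genes of small peritoneal macrophages and monocytes was highest in that library as well, at 1161, 1066, 1381 and 982 CPM, mostly from *H2-Ab1* (522 to 738 CPM), a chain of MHC class II, and *Retnla* (239 to 408 CPM). Not every gene of the list did so, since *Irf4* was highest in control ZT14 (144 CPM) and *Cd226* in control ZT2 (19.9 CPM). *Ly6c2*, a monocyte marker, measured 3.12, 0.879, 4.52 and 0.307 CPM. The dendritic cell genes summed to 44.7, 35.7, 64.0 and 37.7 CPM, led by *Cd209a* (17.3 to 38.6 CPM). Their part in the *Ccr2* result was not tested. *Ccl2*, the main ligand of CCR2, stood at 1.65 to 2.54 CPM, and the interval of every log2 ratio included 0. *Ackr2*, which scavenges inflammatory CC ligands such as CCL2, was lower in both MCS libraries (6.38 and 6.65 CPM) than in both controls (8.78 and 10.8 CPM). Its log2 ratio of MCS to control was -0.69 at ZT14 (-1.17 to -0.23) and -0.45 at ZT2 (-0.99 to 0.06).

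In the CXCL12 system, the signaling receptor differed between times while the ligand did not detectably differ. *Cxcl12*, made mainly by stromal cells, measured 24.8, 23.3, 22.7 and 24.0 CPM in control ZT2, control ZT14, MCS ZT2 and MCS ZT14, and all its intervals included 0. *Cxcr4*, its signaling receptor, measured 68.5 and 60.8 CPM at ZT2 in control and MCS, against 31.7 and 33.5 CPM at ZT14. Both ZT2 libraries were thus near a doubling of the ZT14 level, with a log2 ratio of 1.11 in control (0.90 to 1.32) and 0.86 with MCS (0.66 to 1.06). The log2 ratio of MCS to control was -0.17 at ZT2 (-0.34 to -0.00) and 0.08 at ZT14 (-0.15 to 0.31).

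*Ackr3*, the atypical receptor that scavenges CXCL12, crossed over. It measured 48.3, 36.6, 36.1 and 49.3 CPM in control ZT2, control ZT14, MCS ZT2 and MCS ZT14. The log2 ratio of MCS to control was -0.42 at ZT2 (-0.64 to -0.20) and 0.43 at ZT14 (0.23 to 0.64), and between times (ZT2 over ZT14) it was 0.40 in control (0.19 to 0.61) and -0.45 with MCS (-0.66 to -0.24). The difference between the MCS ratios was 0.85 (0.56 to 1.14). *Cxcl14*, a ligand expressed at rest, stood at 25.2, 19.4, 25.5 and 22.4 CPM, with a log2 ratio of ZT2 to ZT14 of 0.37 in control (0.08 to 0.67) and 0.19 with MCS (-0.09 to 0.47).

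The membrane-bound ligand *Cxcl16* measured 12.2, 15.4, 14.0 and 16.1 CPM in control ZT2, control ZT14, MCS ZT2 and MCS ZT14, and all its intervals included 0. *Cxcr6*, its receptor on T and natural killer cells, was higher at ZT2 (8.08 and 8.47 CPM in control and MCS) than at ZT14 (5.82 and 5.01 CPM). The log2 ratio of ZT2 to ZT14 was 0.47 in control (-0.06 to 1.02), an interval that includes 0, and 0.75 with MCS (0.22 to 1.31). *Cxcr6* overlaps *Fyco1* (123 CPM) in the annotation. *Cx3cl1*, the other membrane-bound ligand, was detected with 17, 2, 4 and 5 reads, and its single high library, control ZT2 at 1.96 CPM, placed it past the fold against control ZT14 (2.69, 1.08 to 6.32) and in MCS against control at ZT2 (-1.87, -4.11 to -0.46). *Cx3cr1*, its receptor on monocytes and macrophages, was higher in both MCS libraries (16.9 and 13.7 CPM at ZT2 and ZT14) than in both controls (13.1 and 10.1 CPM). Its log2 ratio of MCS to control was 0.37 at ZT2 (0.01 to 0.74) and 0.44 at ZT14 (0.05 to 0.84).

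The remaining receptors are best known from lymphocytes and dendritic cells. *Ccr7*, which leads dendritic cells to lymph nodes, stood at 20.3 and 20.1 CPM at ZT2 in control and MCS and at 16.1 and 17.1 CPM at ZT14. *Ccr6*, the CCL20 receptor found on B cells among others, measured 12.4, 7.58, 8.12 and 8.90 CPM in control ZT2, control ZT14, MCS ZT2 and MCS ZT14, and was highest in control ZT2. Its log2 ratio of MCS to control at ZT2 was -0.60 (-1.06 to -0.16). *Ccr9*, a gut-homing receptor that shares a stretch of 269 bases with another gene, stood at 7.06 to 8.43 CPM. *Cxcr3*, the receptor of interferon-induced ligands on T and natural killer cells, was at 1.76 to 3.36 CPM, and *Xcr1*, which marks cross-presenting dendritic cells, was at 2.45 to 3.63 CPM. For the last 3 genes all intervals included 0.

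The 14 genes with a mean under 1 CPM had 7 to 33 reads each over the 4 libraries, with values of 0 to 2.09 CPM. In 6 of them 1 or more libraries reached 1 CPM, and besides *Ccl4*, *Cxcl3* and *Cx3cl1* these were the receptors *Ccr4* (1.39 CPM in control ZT2), *Ccr10* (1.04 CPM in MCS ZT2) and *Ackr4* (1.23 CPM in MCS ZT14). *Ccr4* and *Ccr10* are receptors of skin-homing T cells, and *Ackr4* removes homeostatic CC ligands. The other 8 were the ligands *Ccl17*, *Ccl22*, *Ccl25*, *Ccl27a*, *Ccl28*, *Cxcl9* and *Xcl1* and the receptor *Ccr1l1*. At this depth these 8 were too sparse to compare. *Ccl27a* shares up to 265 bases with near copies, and *Ackr4* overlaps *Acad11* (17.2 CPM), so that their reads are uncertain.

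**Figure D3:**
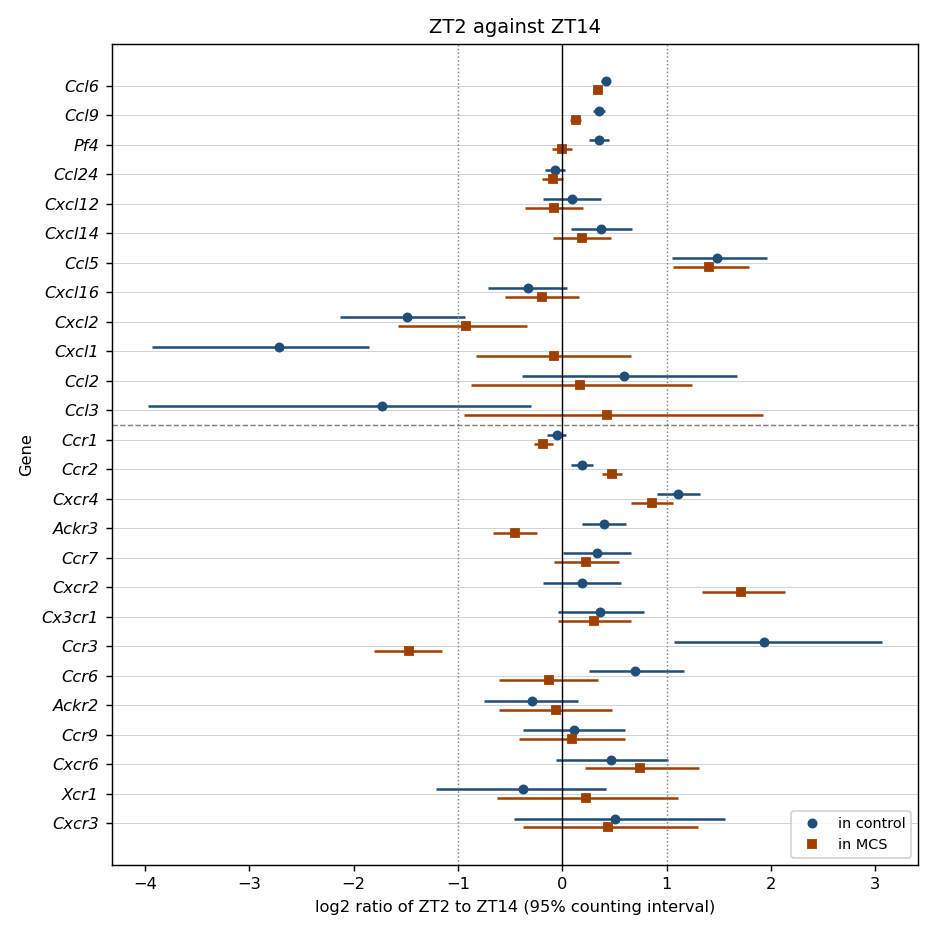
Log2 ratio of ZT2 to ZT14 (x axis) for the same chemokine genes (y axis, ligands above the dashed line), in control (circles) and MCS (squares). Bars are 95% counting intervals and dotted lines mark log2 ratios of -1 and 1. *Ccl5* and *Cxcr4* lie to the right in both groups, *Cxcl2* to the left in both, and *Ccr3* and *Ackr3* on opposite sides.

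The count of chemokine genes past the fold between times depended on genes with few reads. In control, 8 of the 30 chemokine genes above the expression limit were past the fold, against 3.61% of all genes. *Ccl5*, *Ccr3*, *Cx3cl1* and *Cxcr4* were higher at ZT2 (4 of 30, against 2.42% of all genes), and *Ccl3*, *Cxcl1*, *Cxcl2* and *Cxcl3* were lower at ZT2 (4 of 30, against 1.19%). With MCS, 3 of 27 were past the fold, against 5.83% of all genes, namely *Ccl5* and *Cxcr2* higher at ZT2 (2 of 27, against 3.96% of all genes) and *Ccr3* lower at ZT2 (1 of 27, against 1.87%). With a log2 mean above 3 required, 2 were past the fold in control (*Ccl5* and *Cxcr4*) and 3 with MCS. The share of all genes was not taken at that limit. The control calls of *Ccl3*, *Cxcl3* and *Cx3cl1* rested on 2 to 19 reads a library, and that of *Ccr3* on 46 against 12 reads. The median log2 ratio of the 27 genes with a mean of at least 1 CPM was 0.33 in control and 0.13 with MCS, where the median of all 12511 such genes was 0.00.

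Of the 27 genes, 11 had both ZT2 libraries above both ZT14 libraries (40.7%), against 21.3% of all genes. They were *Ccl2*, *Ccl5*, *Ccl6*, *Ccl9*, *Ccr2*, *Ccr7*, *Cxcl14*, *Cxcr2*, *Cxcr3*, *Cxcr4* and *Cxcr6*. The opposite order was found in 5 (18.5%, against 21.3% of all genes), among them *Ccr1*, *Cxcl1*, *Cxcl16* and *Cxcl2*. The gaps between the pairs were mostly small, from a log2 ratio of 0.05 for *Cxcr3* to 0.93 for *Ccl5*. Mast cell genes were likewise higher at ZT2 (1871 and 2304 CPM in control and MCS) than at ZT14 (1228 and 983 CPM), as were the 5 fibroblast genes, led by *Dcn* (15.5 and 19.7 against 4.06 and 9.51 CPM), and the 6 mesothelial genes, led by *Krt19* (9.70 and 11.0 against 3.41 and 4.81 CPM). Their part in the order of the chemokine genes was not tested.

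A count test over all 4 libraries, with terms for time and MCS, used the pairs as replicates of each other and had 1 residual degree of freedom. It fits an effect common to both pairs, so a large difference in either pair can carry a call. Its p-values take their spread from how the pairs differ and do not measure the spread between animals. By edgeR's quasi-likelihood test with Benjamini-Hochberg adjustment, 4 of 27 chemokine genes differed between times, against 2.38% of the 12404 genes tested, with 3 higher at ZT2 (1.44% of all genes) and 1 lower (0.935%). In that test *Ccl5* (log2 fold change 1.46, adjusted p = 6.53e-05), *Cxcr4* (0.99, adjusted p = 0.00038) and *Cxcr2* (0.96, adjusted p = 0.0364) were higher at ZT2. In the same edgeR test *Cxcl2* was lower at ZT2 (-1.22, adjusted p = 0.0144), and *Cxcl1*, at -1.31, did not pass (adjusted p = 0.121). The fit for *Cxcr2* averages a large and a small difference, since its ratio was 1.71 with MCS and 0.19 in control.

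**Figure D4:**
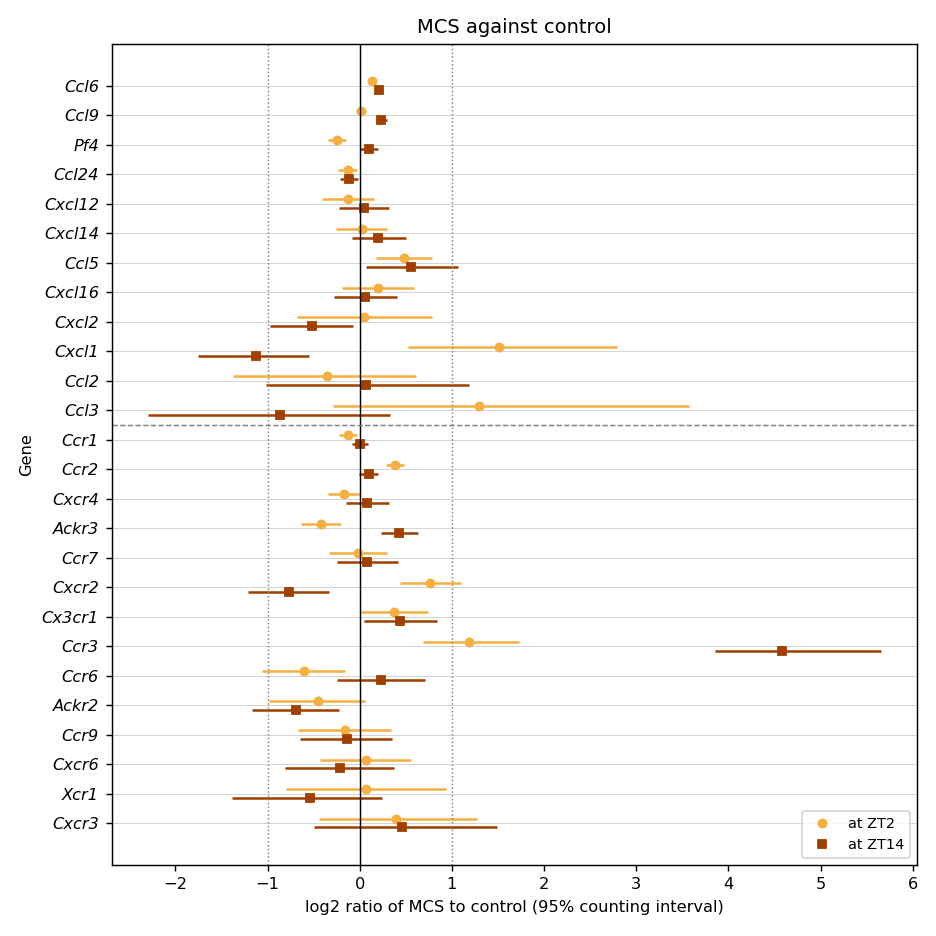
Log2 ratio of MCS to control (x axis) for the same chemokine genes (y axis, ligands above the dashed line) at ZT2 (circles) and ZT14 (squares). Bars are 95% counting intervals and dotted lines mark log2 ratios of -1 and 1. *Ccr3* stands far to the right at ZT14, *Cxcl1*, *Cxcr2* and *Ackr3* lie on opposite sides at the different times, and most other genes lie close to 0.

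MCS against control put 3 chemokine genes past the fold at each time. At ZT14 these were 3 of 28 (10.7%), against 3.40% of all genes. *Ccr3* was higher (1 of 28, against 1.84%), and *Cxcl1* and *Cxcl3* were lower (2 of 28, against 1.57%). *Cxcl3* had 3 reads with MCS and 19 in control (log2 ratio -2.43, -5.17 to -1.002). At ZT2 they were again 3 of 28 (10.7%), against 2.21% of all genes. *Ccr3* and *Cxcl1* were higher (2 of 28, against 1.44%), and *Cx3cl1* was lower (1 of 28, against 0.769%). Across the 27 genes the median log2 ratio of MCS to control was 0.07 at ZT14 and 0.02 at ZT2. Each comparison with MCS shares a library with each comparison of times, so a gene that stands apart in 1 library, as *Cxcl1* does in control ZT14, is counted in both.

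Both MCS libraries were above both controls in 2 of the 27 genes (7.41%), *Ccr3* and *Cx3cr1*, against 11.1% of all genes. They were below in 3 (11.1%), *Ackr2*, *Ccl24* and *Ccr9*, against 11.4% of all genes. These shares rest on 2 and 3 genes and were not told apart from those of all genes. In the count test 1 of 27 differed with MCS, *Ccr3*, against 0.193% of all genes in either direction, 0.161% higher and 0.0322% lower (log2 fold change 2.70, adjusted p = 3.10e-05 by edgeR's quasi-likelihood test with Benjamini-Hochberg adjustment). The fit for *Ccr3* averages unlike log2 ratios, 4.58 at ZT14 and 1.18 at ZT2. At an unadjusted p under 0.05 there were 3 of 27, with *Ccl5* and *Ackr2* added, against 2.45% of all genes.

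The genes that carry the receptor signal were examined beside the receptors. Of 34 listed genes for G protein subunits, arrestins, receptor kinases, RGS proteins and effectors in the table, 33 had a mean of at least 1 CPM. With MCS, 0 of 33 were past the fold at ZT14, against 3.40% of all genes, and 0 at ZT2, against 2.21%. Between times, 2 of 33 (6.06%) were past it in control, against 3.61% of all genes, and 0 with MCS, against 5.83%. *Rgs1*, which shortens G protein signaling, measured 4.97, 1.76, 3.60 and 2.56 CPM in control ZT2, control ZT14, MCS ZT2 and MCS ZT14. *Pik3r5*, the regulatory subunit of the phosphoinositide 3-kinase activated by chemokine receptors, measured 283, 123, 303 and 161 CPM in that order. Its log2 ratio of ZT2 to ZT14 was 1.20 in control (1.09 to 1.299) and 0.91 with MCS (0.82 to 1.004), and both ZT2 libraries were above both ZT14 libraries, as for *Cxcr4*. By edgeR's quasi-likelihood test 1 of the 33 differed between times at an adjusted p under 0.05 and 0 differed with MCS, against 2.38% and 0.193% of all genes. An unadjusted p under 0.05 was found for 8 of the 33 between times (24.2%, against 10.4% of all genes) and for 1 with MCS (3.03%, against 2.45%). Both MCS libraries were above both controls in 7 of the 33 (21.2%, against 11.1% of all genes) and below in 2 (6.06%, against 11.4%). Between times, 8 had both ZT2 libraries above both ZT14 libraries and 8 had them below (24.2% each, against 21.3% of all genes each way).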

How the data were processed

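RNA of sorted peritoneal macrophages was depleted of ribosomal RNA and sequenced in 4 directional libraries, 1 per condition. The authors trimmed reads with Trimmomatic (0.38), quantified them on mm10 with RSEM (1.3.0) and Bowtie 2, and deposited CPM normalized with edgeR. For the annotation version no source used here gives a name.

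Every deposited CPM value was a whole multiple of 1 read within 0.05 read (100% of values), and reads were recovered on that basis. RSEM estimates need not be whole, so rounding by the authors is included. Log2 ratios were taken on CPM + 0.1. Ratio intervals were exact conditional binomial intervals and level intervals exact Poisson intervals. The count test was an edgeR (4.0.16) quasi-likelihood test in R (4.3.3) on genes with at least 40 reads, and its script was tested on simulated data. Exon lengths and promoters came from the reference annotation. Other steps used Python (3.11.15), pandas (2.3.3) and scipy (1.17.1).

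A single gene is counted but not reported here. Genes were named when they had a mean of at least 1 CPM, were past the fold, or reached 1 CPM in 1 library. The genes, lists and tests were chosen with earlier results of these data known. The promoter motifs, the single-library criterion, the sum of *Cxcl1*, *Cxcl2* and *Cxcl3*, the neutrophil sum without *Csf3r* and the hemoglobin sum were chosen after values were seen. Alternatives were other pseudocounts, expression limits, thresholds and scalings.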

Additional observations from a re-analysis of the deposited data

Results flagged for a closer look

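In 5 genes the log2 ratio had opposite signs in the different groups, with counting intervals on either side of 0. With 1 library per condition, whether a ratio differed between the groups was not tested. *Ackr3* had log2 ratios of MCS to control of 0.43 at ZT14 and -0.42 at ZT2, and of ZT2 to ZT14 of 0.40 in control and -0.45 with MCS. *Ccr3* had log2 ratios of ZT2 to ZT14 of 1.93 in control and -1.47 with MCS. *Cxcl1* had log2 ratios of MCS to control of -1.12 at ZT14 and 1.51 at ZT2. *Cxcr2* had -0.76 at ZT14 and 0.76 at ZT2, and *Pf4* had 0.10 at ZT14 and -0.25 at ZT2.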

How the results depend on the processing

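No gene's log2 ratio changed sign among 116 ratios when the libraries were rescaled to a median gene ratio of 1. These were the ratios of the genes with a mean of at least 1 CPM and of *Cxcl3* and *Cx3cl1*. The other settings could not change a sign. A pseudocount of 1 or 0.01 CPM keeps which library is higher, and TMM factors gave the deposited values again. Of 68 list values under all alternatives, 48 stayed close and 20 moved, and 8 of those that stayed were the TMM repeats. The counts past the fold moved with the expression limit and the threshold, in the order MCS at ZT14, MCS at ZT2, times in control and times with MCS. With a log2 mean above 3 they were 1, 1, 2 and 3, so that times in control no longer had the most, and with no minimum 7, 10, 13 and 6. A log2 ratio beyond 2 gave 0 for MCS at ZT2, 3 for times in control and 0 for times with MCS. The edgeR test, which fits an effect common to both pairs, called 1 gene for MCS and 4 for time. Of the genes whose pairs did not overlap, those lower at ZT2 numbered 3 and those lower with MCS 1 at a mean of at least 10 CPM. With no minimum, 4 were higher with MCS. With gaps beyond a log2 ratio of 1, the counts were 0 higher at ZT2, 0 lower at ZT2, 1 higher with MCS (*Ccr3*) and 0 lower with MCS. The share of all genes was not taken under these other limits and thresholds, so these counts do not show whether chemokine genes stood out. Why the other counts moved was not tested, beyond fewer or more genes being eligible. No paired analysis was possible because the libraries carry no replicate numbers. The edgeR test compared MCS with control within times through its time term. Without replicates no library could be left out, and the genes under 1 CPM are limited by depth.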
